A study of Mus musculus with 3 samples.

Results

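Cells carrying transcripts of 6 genes used as markers of the hair follicle mouth and upper follicle were followed in single-cell RNA-seq of full-thickness dorsal mouse skin, in 3 libraries with 1 library for each condition. All mice were wild-type C57BL/6J and labelled female, with an age of 8 weeks. That age is given for the mice as purchased, before irradiation, and the age at sampling is not stated. The CON library came from skin given no irradiation, the UV library from skin irradiated every other day for 12 weeks with a mixed source (UVA, 0.60 mW/cm2, and UVB, 3.5 mW/cm2), and the Rux library from skin irradiated in the same way and treated right after each exposure with an ointment of 1.5% ruxolitinib, an inhibitor of the kinases JAK1 and JAK2. CON and UV skin received the vehicle of that ointment, which was DMSO in Aquaphor, and skin was taken 24 h after the last exposure. The number of mice behind a library is not given in the sources used here, so no value has a replicate check, and no test across samples and no p-value is given.

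Cells were retained from 500 genes upwards where mitochondrial genes gave no more than 10% of the UMIs (molecular tags that each mark 1 captured transcript), 32377 in all. The cells described here were chosen by their own transcripts, with at least 1 UMI in at least 3 of the 6 genes Krt79, Cst6, Defb6, Klk7, Alox12e and Defb1 and with 0 UMIs of the leukocyte gene Ptprc and the fibroblast gene Pdgfra. This rule held for 1629 of the 32377 cells, 1017 in CON, 303 in UV and 309 in Rux, which are called marker-positive cells. Their summed counts were 28283495 UMIs in CON, 9685900 in UV and 9178586 in Rux, of library totals of 165337289, 133972374 and 131570327 UMIs. They were deep cells, with a median of 18578, 21364 and 23529 UMIs per cell against 8205, 7945 and 9838 over all retained cells. All levels are UMIs summed over the cells of a library scaled to counts per 1000000 of that sum (CPM), differences are log2 ratios of those levels, and ranges in parentheses are exact 95% intervals that cover counting error only. A summed level moves both with the number of cells of a kind among the chosen cells and with the transcripts in each of them.

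The infundibulum is the funnel through which the hair follicle and its sebaceous gland open onto the epidermis, and its cells are continuous with the epidermis outside and with the isthmus below. Its outer layer is a basal layer with Krt14 and Krt5, while its inner layers differentiate and carry Krt79, an upper follicle keratin that marks the lining of the hair canal, with proteases and antimicrobial peptides that meet the skin microbiota. Sebocytes, inner root sheath and the lower outer root sheath with its Lgr5-positive cells lie next to these cells. Cytokines that reach keratinocytes signal through JAK kinases and STAT transcription factors, which in turn induce their own inhibitors of the SOCS family.

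The libraries carried 2 features that bear on every value. The mice are labelled female, yet the marker-positive cells of each library carried Y-linked transcripts and hardly any Xist. Ddx3y stood at 90.9 CPM in CON, 82.4 CPM in UV and 86.0 CPM in Rux, and Xist had 0.0354, 0.206 and 0 CPM, so the data went against the labelled sex in the same way in the 3 libraries. Cell barcodes shared between libraries numbered 50 for CON and UV, 28 for CON and Rux and 40 for UV and Rux, and 1 marker-positive cell of CON shared its barcode with 1 of UV.

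The rule took in several kinds of cells, many of them led by genes of the inner root sheath, lower follicle, sebocytes or non-epithelial cells, so the data went against an upper follicle name for the set as a whole and it is called by its rule. Cells with 3 detected markers had a median of 6, 6.5 and 6 marker UMIs in CON, UV and Rux, those just outside the rule with 2 markers had 3, 3 and 2, and cells with all 6 markers had 495, 583.5 and 805. Other cell classes gave the background of the rule. Among cells with at least 2 UMIs of Ptprc, 3.26% (1.98 to 5.05) carried 3 of the markers in CON, 0.515% (0.106 to 1.50) in UV and 1.14% (0.588 to 1.97) in Rux, at median depths of 6562, 7035 and 6878 UMIs. Among cells with at least 2 UMIs of Pdgfra the shares were 3.16%, 0.723% and 1.72%, and among cells with at least 2 UMIs of Pecam1 or Cdh5, genes of endothelium, 5.26%, 2.29% and 2.28%. Detection of 3 markers was therefore not particular to keratinocytes, and free RNA was not modelled. Cells with at least 1000 CPM from the 6 markers together, 538 in CON, 170 in UV and 158 in Rux, are called marker-rich, a cutoff set after the data were seen. Of the cells with Ptprc, 1.37%, 0.172% and 0.284% passed it together with the detection of 3 markers.

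Clustering of the 1629 cells without the 6 markers gave 12 subclusters, which are given by number and leading genes. Subcluster 7 was the most numerous with 411 cells (203 in CON, 117 in UV and 91 in Rux), led by Cd74, Ifi202b and Aldh3a1 and followed by Sostdc1 and Fst, and 65.0% of its cells were marker-rich. Subcluster 2, with 165 cells (90, 36 and 39), was led by Slc46a2, Cst6 and Klk6, held a median of 799 marker UMIs per cell, and 100% of its cells were marker-rich. Subcluster 8, with 134 cells (89, 18 and 27), was led by Klk8, Tmprss4 and Oas1f with Krt79 among its first 10 genes, and 91.8% of its cells were marker-rich. Rule markers were among the first 10 genes of subclusters 2 and 8, which is no support for the label because the same genes chose the cells, and not of subcluster 7, whose marker level of 4890 CPM was below the 9348 CPM of subcluster 3. Subcluster 7 is described by its number and leading genes because it held the most cells.

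The remaining subclusters carried leading genes of neighbouring or unrelated cells. Subcluster 0 (278 cells, 174 in CON, 50 in UV and 54 in Rux) was led by Krt71, Krt25 and Krt73, keratins of the inner root sheath, and had a median of 6 marker UMIs. Subcluster 4 (210 cells, 139, 29 and 42) was led by Pi15, Gpc6 and Col14a1 with Lgr5 and Lhx2, genes of the lower follicle. Subcluster 3 (115 cells, 97, 6 and 12) was led by Krt78, Skint5 and Krt6b, followed by Flg and Krt77, which are genes of differentiating epidermis. Krt6b was nearly absent from CON, as given below, so it led there through cells of UV or Rux. Subcluster 6 (63 cells, 44, 15 and 4) was led by Cyp2j12, Awat1 and Pnpla5, of which Awat1 makes wax esters in sebocytes. Subcluster 5 (83 cells, 56, 9 and 18) was led by Sox6, Cstdc5 and Igfbp3. Subclusters 1 (100 cells; Ttn, Tmem252 and Aqp1), 9 (25 cells; Gpr143, Tyr and Synpr), 10 (35 cells; Klhl4, Nts and Gdf15) and 11 (10 cells; Lce1d, Lce1e and Lce1g) carried muscle or vascular, pigment cell, lymphatic and cornified genes. Cells scored as doublets, which were kept, numbered 44 in subcluster 1, 13 in subcluster 9, 10 in subcluster 10 and 2 in subcluster 11. There were also 34 in subcluster 0, 17 in subcluster 4 and 12 in subcluster 6. Subclusters 2, 3, 5, 7 and 8 held 5, 1, 2, 5 and 4. Over all marker-positive cells they numbered 105 in CON, 23 in UV and 21 in Rux. The leading genes of several subclusters differed between the libraries, so their cell numbers are given as counts, also where they stand beside a result, and no difference in size is read from them.

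**Figure D1:**
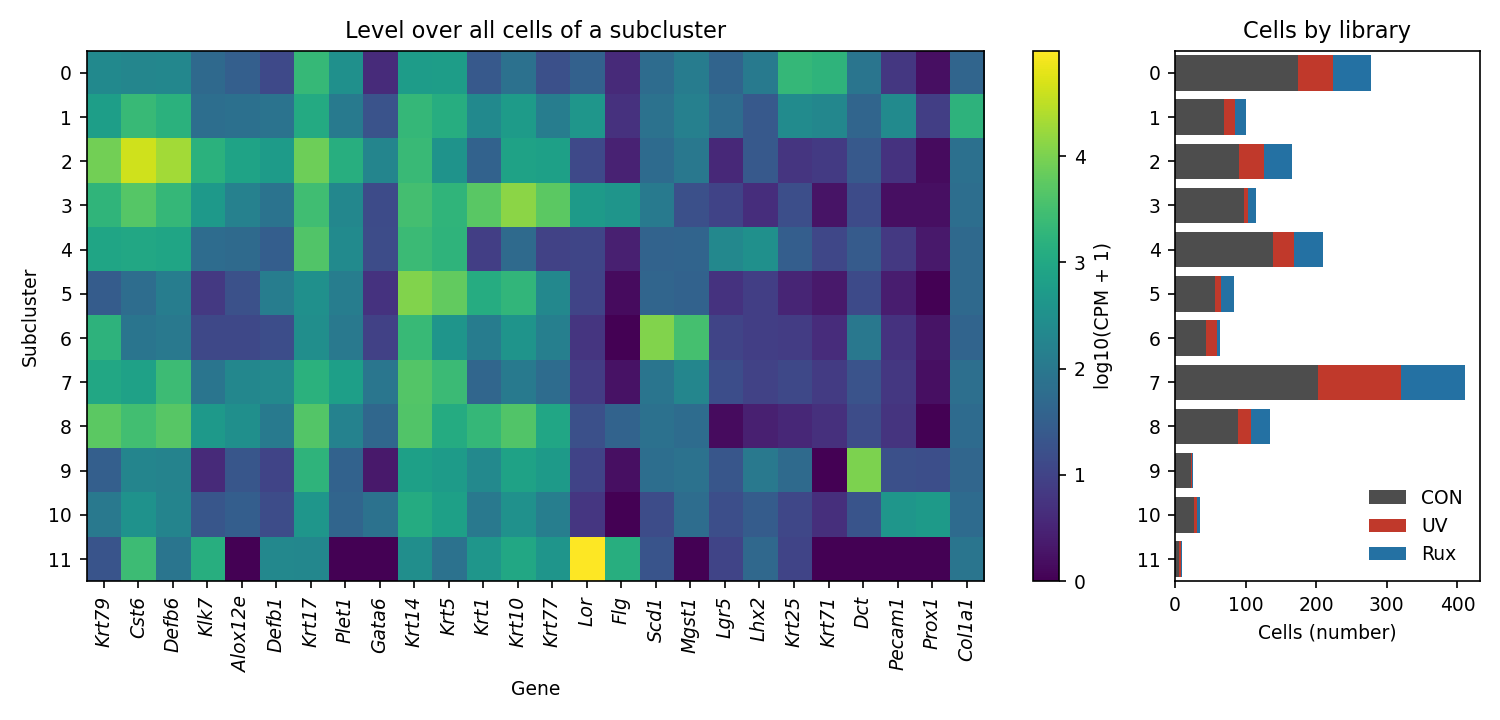
Levels of 26 genes in the 12 subclusters of marker-positive cells as log10(CPM + 1) over the summed cells (left), and the number of cells of each subcluster by library as stacked bars (right). Krt79 and Defb6 are brightest in subclusters 2 and 8, Scd1 in subcluster 6, Krt25 and Krt71 in subcluster 0, and Lor in subcluster 11 with its 10 cells.

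The 6 genes of the rule were present at unequal levels, which are a description because they chose the cells. Cst6, a cysteine protease inhibitor (cystatin M/E; GRCm38 chromosome 19, 5344705 to 5349574), stood at 2538 CPM in CON, 3270 CPM in UV and 5303 CPM in Rux, and the tenth of cells with the most Cst6 held 87.5%, 86.6% and 91.0% of its UMIs. Defb6, a beta-defensin (chromosome 8, 19225478 to 19228209), stood at 2007, 1987 and 2992 CPM and was detected in 91.6%, 80.9% and 88.0% of the cells. Krt79 (chromosome 15, 101929332 to 101940324) stood at 1188, 1415 and 1712 CPM. These 3 genes carried most of the marker UMIs, and Cst6 was the most concentrated in few cells. Klk7, a kallikrein protease that cleaves corneodesmosomes (chromosome 7, 43811294 to 43816359), had 177, 151 and 248 CPM. Alox12e, an epidermal lipoxygenase (chromosome 11, 70315610 to 70322628), had 127, 116 and 137 CPM, and Defb1, a second beta-defensin (chromosome 8, 21776599 to 21795185), had 65.7, 134 and 163 CPM. Defb1 was the lowest of the 6 in CON and, as a ratio, the marker with the widest gap between CON and UV.

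Marker-positive cells made up 8.88% (8.36 to 9.42) of the retained cells in CON, 2.75% (2.45 to 3.07) in UV and 3.12% (2.79 to 3.48) in Rux. The CON share lay above the other libraries by more than the counting error, while the UV and Rux intervals overlapped. The order of CON above UV held when every cell was thinned to 3000 UMIs, at 4.09% (3.71 to 4.50), 1.58% (1.34 to 1.86) and 1.45% (1.21 to 1.72), and for marker-rich cells, at 4.70% (4.32 to 5.10), 1.54% (1.32 to 1.79) and 1.60% (1.36 to 1.86). Thinning left out shallower cells, so that 9829, 9353 and 8833 cells stayed in the 3 denominators. Among epithelial cells alone (cells with at least 4 of Krt5, Krt14, Krt17, Perp, Sfn, Dsp, Cdh1 and Lgals7 and with 0 UMIs of Ptprc, Pdgfra, Pecam1 and Cdh5), the shares were closer together, at 20.3% (19.1 to 21.5) in CON, 13.1% (11.6 to 14.7) in UV and 17.0% (15.2 to 19.0) in Rux. There the Rux interval lay above that of UV and below that of CON. The share in cells that should not carry the markers was also highest in CON, as given above, and its part in the difference was not tested.

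**Figure D2:**
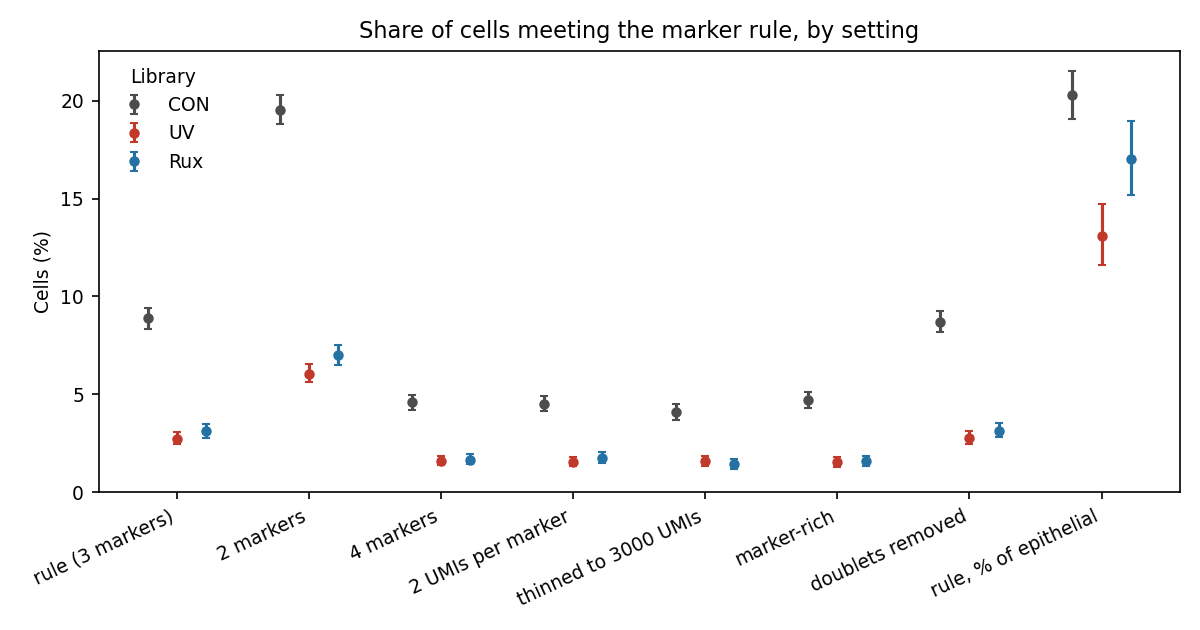
Share of cells in percent that met the marker rule in CON, UV and Rux under each setting on the horizontal axis, with exact 95% binomial intervals. CON is above UV in every setting shown, and UV and Rux differ most when the share is taken of epithelial cells, at 13.1% and 17.0%.

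The marker-positive cells were set beside the other epithelial cells of the same library. The 10 genes outside the rule with the highest mean ratio over the 3 libraries were Skint3, 2310046K23Rik, Krt77, Ly6g6c, Spink5, Lce1m, Crct1, Lce1a1, Elovl4 and Lor. Spink5 encodes LEKTI, the inhibitor of kallikreins, Lor encodes loricrin of the cornified envelope, and Elovl4 extends very long fatty acids of sebum and of the barrier. Lce1m and Lor rested on few cells, since 5 cells held 98.1% of the Lce1m UMIs and 73.3% of the Lor UMIs in CON. Skint3 stood at 157 CPM in CON, 163 CPM in UV and 292 CPM in Rux, and Ly6g6c at 366, 212 and 372 CPM. Because the cells were chosen by expression, these contrasts with the other epithelial cells carry no test and are a description of what the rule selected.

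In UV, keratins and other genes of suprabasal differentiation were lower than in CON over the marker-positive cells, while Krt6a and MHC class II genes were higher. Of the 3719 genes that averaged 50 CPM or more in CON and UV, 35 were at least 2-fold higher in UV (0.941%) and 36 at least 2-fold lower (0.968%). At 10 CPM or more, which was the minimum for gene lists, 1.17% of 8927 genes were 2-fold higher and 1.79% 2-fold lower, and the median log2 ratio of all of them was −0.04. Passing a fold is a rule of size and not a test. A gene can reach the minimum through the library where it is high, so counts and medians over the list genes past the minimum describe those genes and support nothing. UV and CON differ by library as well as by treatment, and the effects of these cannot be told apart.

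The 10 highest genes for UV over CON were Cstdc5, Cd74, Tchh, Krt71, Slpi, Krt25, Krt27, Postn, Krt6a and Gjb2, at log2 ratios from 3.28 to 1.67. Tchh, Krt71, Krt25 and Krt27 are inner root sheath genes, and they were lower in UV than in CON in the marker-rich cells, where Krt25 had a log2 ratio of −2.55 against 2.12 over all marker-positive cells. Cstdc5, a cystatin-like gene, rested on few cells, since 5 cells of UV held 56.1% of its UMIs. The 10 lowest were Defb8, Lce1m, Gm94, Krt77, Mlana, Mt4, S100a3, Ptgds, Krt10 and Tyrp1, at log2 ratios from −7.35 to −2.79. Mlana and Tyrp1 are pigment cell genes, and the summed level of the melanocyte list was 1265 CPM in CON, 230 CPM in UV and 266 CPM in Rux over marker-positive cells against 219, 163 and 80.7 CPM in marker-rich cells. Defb8, another beta-defensin, had 4519 UMIs in CON, 9 UMIs in UV and 0 in Rux, and 5 cells held 84.6% of the CON UMIs. The gap was not limited to the marker-positive cells. In the other epithelial cells Defb8 had 126 CPM in CON, 0.0579 CPM in UV and 0 CPM in Rux. Lce1m, a late cornified envelope gene, also rested on few cells, with 98.1% of its CON UMIs in 5 cells.

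Of the suprabasal list of 15 genes, 11 were lower and 4 higher in UV, 6 of them by at least 2-fold, and the median log2 ratio was −0.74. Krt10, the acidic keratin of the spinous layer (chromosome 11, 99385254 to 99389364), stood at 1922 CPM in CON, 277 CPM in UV and 1198 CPM in Rux. Its log2 ratio for UV over CON was −2.79 (−2.85 to −2.74), with the lowest level in UV and an intermediate level in Rux. Its partner Krt1 had 780, 139 and 461 CPM. Krt77, a keratin that pairs with Krt10 in adult epidermis and sweat ducts, had 842, 51.2 and 159 CPM, a log2 ratio of −4.04 (−4.17 to −3.91), and was among the lowest of all genes. Krt77 is not a member of the list, of which Mt4, a metallothionein of stratified epithelia, Krtdap, Ptgs1 and Sbsn were the members at least 2-fold lower beside Krt10 and Krt1, with ratios from −2.95 for Mt4 to −1.07 for Sbsn. Of the cornified envelope list, 15 genes passed the minimum, 13 of them were lower in UV, 8 by at least 2-fold, and the median was −1.20. Of the 8, Lce1c, Flg, Lce1b and Cdsn were below 10 CPM in UV and reached the minimum through CON alone. Lor had 381 CPM in CON, 86.3 CPM in UV and 196 CPM in Rux, with 97.2% of the UV UMIs in 5 cells, and Flg, the filaggrin gene, had 53.2, 7.54 and 12.3 CPM.

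The same list read differently by kind of cell. In marker-rich cells the suprabasal median was −0.95 with 13 of 15 genes lower, and Krt10 stood at 2987 CPM in CON, 474 CPM in UV and 1448 CPM in Rux. In those cells 1.69% of 8621 genes were 2-fold higher and 2.06% 2-fold lower in UV. In subcluster 7 the suprabasal median was 0.22, with 9 of 12 genes higher in UV, against 1.92% of 8524 genes 2-fold higher and 2.09% 2-fold lower, and Krt1 alone of the list was past 2-fold, from 72.1 CPM in CON to 25.7 CPM in UV. Krt10 there had 176 CPM in CON, 92.8 CPM in UV and 53.8 CPM in Rux, with 76.0% of the CON UMIs in 5 cells. In subcluster 2, which had 36 cells in UV and 39 in Rux, Krt10 was higher in UV, with 323 CPM in CON, 922 CPM in UV and 1303 CPM in Rux. In subcluster 8, with 18 cells in UV and 27 in Rux, Krt10 had 2814 CPM in CON, 3015 CPM in UV and 9045 CPM in Rux. Krt10 was thus lower in UV than in CON over all marker-positive cells and in subcluster 7, higher in subcluster 2, and close to CON in subcluster 8. Subclusters 3 and 8, which carried 97 and 89 cells of CON against 6 and 18 of UV, held the highest Krt10 levels of the 12, and with CON numbers of cells per subcluster the suprabasal median was −0.55. How much of the lower level came from these numbers was not tested further.

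Proteases and inhibitors of the barrier followed no single direction over marker-positive cells. Of 10 genes of the kallikrein and inhibitor list past the minimum, 5 were higher and 5 lower in UV, with a median of 0.00. In marker-rich cells 5 of 13 were higher and 8 lower, with a median of −0.32. There Klk11, Klk8, Serpinb2, Spink5 and Klk5 were at least 2-fold lower and Stfa1 at least 2-fold higher. Spink5 had 97.5 CPM in CON, 31.1 CPM in UV and 50.2 CPM in Rux, and Klk8, a serine protease of the upper epidermis, had 86.1, 25.9 and 29.9 CPM. Both were more than 2-fold lower in UV, as was Klk5, the kallikrein that activates others of its family. Stfa1, a stefin, was the list gene at least 2-fold higher. Among antimicrobial genes Slpi, a secreted inhibitor of leukocyte proteases, stood at 30.7, 136 and 143 CPM, while in marker-rich cells it had 36.5, 50.9 and 51.1 CPM. The barrier lipid list had a median of −0.12 over marker-positive cells with Acer1, an alkaline ceramidase, the only one of 18 genes past 2-fold. In marker-rich cells its median was −0.51 with 13 of 19 genes lower in UV, and Cers3, Elovl1 and Sult2b1 were at least 2-fold lower.

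Genes of the interfollicular basal list stayed within 2-fold between CON and UV in marker-rich cells. There 14 of 15 were higher in UV, with a median log2 ratio of 0.55, and none was past 2-fold. The median was 0.23 over all marker-positive cells and 0.31 in subcluster 7, and the difference between these sets was not tested. Krt14 stood at 2226 CPM in CON, 4265 CPM in UV and 4527 CPM in Rux in marker-rich cells. In the basal-leaning other epithelial cells, Krt14 had 3547 CPM in CON, 1185 CPM in UV and 2146 CPM in Rux. That is the opposite order of CON and UV. This class was the remainder after lower-follicle cells (at least 2 of Lgr5, Lhx2, Sox9, Postn and Cd34) and suprabasal-leaning cells were taken out. Suprabasal-leaning cells had more UMIs of Krt1, Krt10 and Krtdap than of Krt5, Krt14 and Krt15. The remainder was not basal keratinocytes alone. Inner root sheath genes were higher there in UV, with log2 ratios of 3.65 for Krt71 and 3.05 for Krt25. Their part in the Krt14 levels was not tested. Krt5 had 953, 1393 and 1824 CPM in marker-rich cells. Lama3, which encodes a laminin chain of the basement membrane, was past 2-fold in subcluster 7, from 66.1 CPM in CON to 141 CPM in UV. The basement membrane and integrin list had a median of 0.23 in marker-positive and 0.49 in marker-rich cells.

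Other genes of the upper follicle, which the rule had not used, were mostly higher in UV over marker-positive cells. Of the list of 15, 11 were higher and 4 lower, with a median of 0.42, and 2 were past 2-fold, Plet1 among them. Plet1, a surface protein of the isthmus and infundibulum, stood at 224 CPM in CON, 593 CPM in UV and 534 CPM in Rux, a log2 ratio of 1.40. In subcluster 7 it had 405, 808 and 816 CPM. Plet1 was at like levels in UV and Rux in both sets. Gata6, a transcription factor of the sebaceous duct and upper follicle, had 21.5 CPM in CON, 39.9 CPM in UV and 72.0 CPM in Rux, the highest level in Rux. Krt17, a keratin of the outer root sheath and of stressed epidermis, was lower in UV, at 2918, 1854 and 2429 CPM. In subcluster 7 the median of the list was −0.08, with 6 genes higher and 8 lower.

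Krt6a, a keratin of the follicle and of wounded or stressed epidermis (chromosome 15, 101689910 to 101694307), stood at 100 CPM in CON, 357 CPM in UV and 282 CPM in Rux. It was detected in 27.5%, 60.1% and 55.0% of the cells, and its log2 ratio for UV over CON was 1.83 (1.76 to 1.91). Its near-identical neighbour Krt6b can share reads with it, which leaves the split between the 2 genes uncertain. Krt6b had 2 UMIs in CON, and 7 cells of UV held 701 UMIs, 339 of them in 1 cell. Of the stress keratin list 4 genes passed the minimum, Krt6a and Krt6b higher in UV and Krt16 and Krt17 lower, with Krt16 at 779, 454 and 317 CPM. Postn, which encodes periostin of the matrix and is also a gene of the lower follicle list, had 37.7, 135 and 151 CPM, with 67.8, 263 and 291 CPM in subcluster 7. Thbs1, the matrix glycoprotein thrombospondin 1, had 136, 301 and 319 CPM.

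MHC class II genes, which professional antigen-presenting cells use to show peptides to CD4+ T cells and which keratinocytes can express after interferon gamma, were higher in UV in all 4 members that passed the minimum. Their median log2 ratio was 2.40, and each was past 2-fold, but H2-Ab1, H2-Aa and H2-Eb1 passed the minimum through their UV level alone, so this count and median are no support. Without the CPM minimum, but with at least 10 UMIs, all 7 genes of the list were higher in UV, with a median of 2.00. Cd74, the invariant chain, stood at 12.7 CPM in CON, 95.3 CPM in UV and 46.5 CPM in Rux over the marker-positive cells, a log2 ratio of 2.91 (2.73 to 3.09). H2-Ab1, a beta chain, had 7.28 CPM in CON, 34.4 CPM in UV and 20.3 CPM in Rux. In subcluster 7, for which Cd74 is a leading gene, H2-Ab1 had 14.4, 88.5 and 55.1 CPM and was detected in 19.7% (14.5 to 25.9), 47.0% (37.7 to 56.5) and 36.3% (26.4 to 47.0) of the cells. In the other epithelial cells H2-Ab1 had 10.6 CPM in CON, 7.70 CPM in UV and 13.5 CPM in Rux, so the order of the libraries was another one there. Langerhans cells are the antigen-presenting cells of this epithelium. Cd207, their defining gene, had 10 UMIs in CON, 1 in UV and 1 in Rux over the marker-positive cells, and 3, 0 and 1 in subcluster 7. The 7 genes of the Langerhans list, which includes Cd74 and H2-Aa, summed to 489, 578 and 571 CPM, of which the epithelial adhesion gene Epcam made up 455, 441 and 483 CPM. Ciita, the class II transactivator, had 3, 7 and 7 UMIs in subcluster 7.

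Of the interferon-stimulated list, 8 of 11 genes were higher in UV in marker-positive cells, 1 by at least 2-fold, with a median of 0.14, and 8 of 10 in marker-rich cells, 2 by at least 2-fold, with a median of 0.46. In subcluster 7 the count was 8 of 11, 1 of them past 2-fold, with a median of 0.27. Ifi27l2a stood at 21.5 CPM in CON, 51.1 CPM in UV and 21.1 CPM in Rux. Cxcl10, a chemokine for T cells that interferon gamma induces, had 42.5, 149 and 111 CPM in marker-rich cells and 91.0, 134 and 91.4 CPM over all marker-positive cells. The chemokine list had a median of 1.00 in marker-rich cells, where 10 of 11 genes were higher, 5 by at least 2-fold (Cxcl10, Cxcl2, Cxcl1, Ccl2 and Ccl7), and of 0.37 in marker-positive cells, where 10 of 11 were higher and none by 2-fold. The difference between these sets of cells was not tested. Outside subcluster 6 the marker-rich median was 0.60, with 3 genes past 2-fold. Ccl20, a chemokine that draws CCR6-positive cells and is made by the infundibulum, went the other way, with 70.6 CPM in CON, 10.9 CPM in UV and 14.8 CPM in Rux in marker-rich cells. Of 13 genes of the alarmin and interleukin list past the minimum, 5 were higher and 8 lower in UV over marker-positive cells. The median was −0.13, with Il24 and Areg at least 2-fold higher and Csf3 and Tnf at least 2-fold lower. Il24, a cytokine of the interleukin-10 family, had 6.01, 24.1 and 2.40 CPM over marker-positive cells and was detected in 4.52%, 12.9% and 3.56% of them. It reached the minimum for UV over CON through UV alone. Areg, a ligand of the EGF receptor, had 65.2, 144 and 123 CPM over marker-positive cells but 100, 95.8 and 86.5 CPM in marker-rich cells.

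Of 27 genes of the p53 and DNA damage list, 19 were higher in UV with a median of 0.25, and 3 were past 2-fold: Trp53inp1 with 58.3 CPM in CON, 118 CPM in UV and 199 CPM in Rux, Eda2r with 8.10, 17.2 and 18.0 CPM, and Polk, a translesion polymerase, with 12.9, 26.2 and 23.9 CPM. Eda2r reached the minimum through UV alone. Cdkn1a, the p53 target p21, had 336, 348 and 369 CPM. The antioxidant list had a median of 0.15, with Srxn1 and Gpx2 past 2-fold, and the heat shock, immediate-early and proliferation lists had medians of −0.10, −0.02 and −0.20 with none of their genes past 2-fold.

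**Figure D3:**
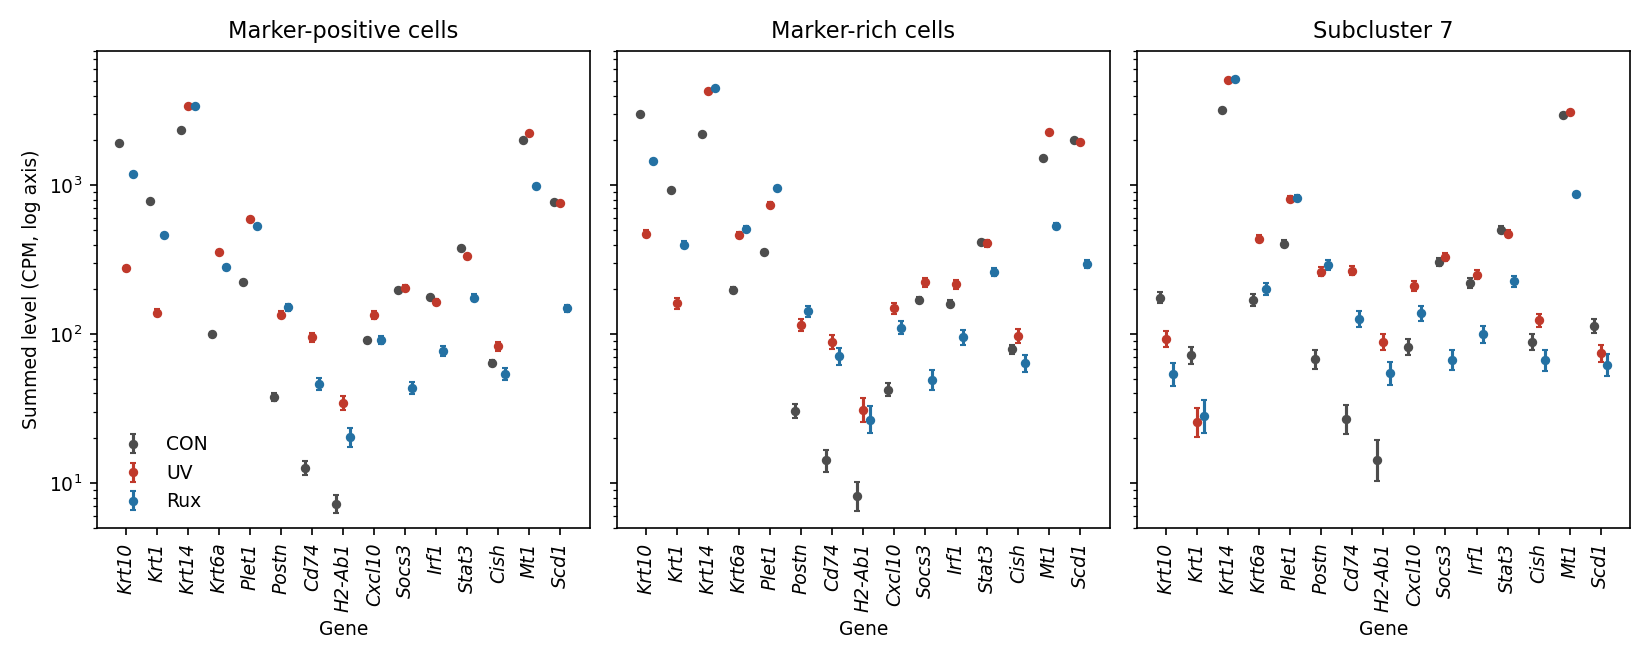
Levels of 15 genes in CPM on a log axis in CON, UV and Rux over all marker-positive cells (left), marker-rich cells (middle) and subcluster 7 (right), with exact 95% Poisson intervals that cover counting error only. Socs3 and Mt1 are lowest in Rux in the 3 panels, while Krt10 is lowest in UV in the left and middle panels only.

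Rux was set beside UV to see what JAK inhibition during irradiation went with in these cells. This comparison shares the UV library with the former, so a gene that is high in UV by its library alone is high in one ratio and low in the other. Rux and UV also differ by library as well as by treatment, and the effects of these cannot be told apart. Of the 3666 genes that averaged 50 CPM or more, 23 were at least 2-fold higher in Rux (0.627%) and 28 at least 2-fold lower (0.764%). At the list minimum of 10 CPM the shares were 1.00% and 1.34% of 8787 genes over marker-positive cells, 0.802% and 3.54% of 8476 genes in marker-rich cells, and 0.762% and 1.42% of 8396 genes in subcluster 7.

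The 10 highest genes for Rux over UV were Krt35, S100a3, Gm49425, Hba-a1, Hbb-bs, Lce1b, Mt4, Lce1a1, Krt73 and Dapl1, at log2 ratios from 5.35 to 2.20. Krt35, S100a3 and Krt73 are hair shaft and inner root sheath genes. In marker-rich cells the direction turned for 4 of the 10, with log2 ratios of −3.01 for Lce1b, −1.29 for Lce1a1, −1.85 for Krt73 and −0.16 for S100a3. The erythrocyte list of 5 genes, which holds these haemoglobin genes, summed to 4.91 CPM in CON, 19.8 CPM in UV and 399 CPM in Rux, and the source of this RNA was not tested. Hba-a1 had 1074 UMIs in Rux, 565 of them in 1 cell, and its Rux level was 508 CPM in subcluster 2 and 7.81 CPM in subcluster 7. The 10 lowest, which included Soat1, Elovl6, Scd1, Socs3, Cers4, Fa2h, Gm47283, Fabp4 and Cstdc5, stood at log2 ratios from −2.51 to −1.78. Fabp4 was higher in Rux in marker-rich cells, with a log2 ratio of 0.82, and with at least 4 markers Fabp4 and Cstdc5 were higher at 1.37 and 0.66. With only cells of at least 1000 genes and up to 5% mitochondrial UMIs, Soat1, Elovl6 and Cers4 were higher in Rux at 0.28, 0.31 and 0.21. Elovl6, Scd1, Cers4 and Fa2h take part in the synthesis of fatty acids and sphingolipids, Soat1 esterifies cholesterol, and Socs3 is the feedback inhibitor of cytokine signalling through STAT3.

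Of the 42 genes of the JAK-STAT list, 36 passed the minimum, of which 26 were lower and 10 higher in Rux than in UV, with a median log2 ratio of −0.15 against −0.02 over all genes. The 6 genes past 2-fold were all lower in Rux: the feedback inhibitors Socs3 and Socs2, the interferon signal transducers Stat2 and Irf9, the transcription factor Irf1 and the NF-kappaB cofactor Bcl3. Socs3 and Irf1 were above 10 CPM in each library, while Socs2, Stat2, Irf9 and Bcl3 were below it in Rux and reached the minimum for this comparison through UV. For UV over CON none of 35 genes of the list was past 2-fold and the median was 0.01. The promoter windows of the feedback genes Socs3 and Cish and of Irf1 are shown because they hold the letters TTCNNNGAA, the palindromic site known to be bound by STAT dimers, and because the JAK-STAT list was set beside JAK inhibition. Windows run from 250 bases before to 50 bases after the RefSeq start in GRCm38.p6, 5′ to 3′ on the strand of the gene, at chr11:117969317-117969616 (minus) for Socs3, chr11:53769764-53770063 (plus) for Irf1 and chr9:107296409-107296708 (plus) for Cish, with the matches in capitals.
Socs3: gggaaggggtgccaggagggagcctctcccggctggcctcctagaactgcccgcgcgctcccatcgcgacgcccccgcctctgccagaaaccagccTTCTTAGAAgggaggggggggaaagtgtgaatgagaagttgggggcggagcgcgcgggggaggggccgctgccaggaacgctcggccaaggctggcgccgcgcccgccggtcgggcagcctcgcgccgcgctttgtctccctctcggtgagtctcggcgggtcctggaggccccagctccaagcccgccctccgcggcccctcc
Irf1: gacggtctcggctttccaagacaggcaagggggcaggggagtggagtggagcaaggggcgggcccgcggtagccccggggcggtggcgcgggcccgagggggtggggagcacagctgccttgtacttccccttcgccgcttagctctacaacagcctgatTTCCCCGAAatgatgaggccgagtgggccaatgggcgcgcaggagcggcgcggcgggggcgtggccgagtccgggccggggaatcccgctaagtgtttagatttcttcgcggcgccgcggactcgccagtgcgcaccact
Cish: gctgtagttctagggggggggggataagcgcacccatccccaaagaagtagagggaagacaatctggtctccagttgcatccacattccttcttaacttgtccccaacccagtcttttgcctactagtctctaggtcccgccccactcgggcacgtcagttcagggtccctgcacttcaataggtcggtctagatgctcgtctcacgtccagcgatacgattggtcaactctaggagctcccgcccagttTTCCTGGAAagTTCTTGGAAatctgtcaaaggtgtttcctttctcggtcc

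The match began 154 bases before the start in Socs3 and 90 bases before it in Irf1, and Cish held 2 matches of which the first began at the start. Of 35 genes of the list with a window, 5 held the letters on either strand (14.3%; Socs3, Cish, Irf1, Ifnar1 and Ifnar2), against 9.55% of 27025 genes and 8.30% of 32851 windows. The windows of Stat3, Stat2, Irf9 and Bcl3 held no match. Of the rule markers, 4 had a window, and none held TTCNNNGAA, TATAAA (13.6% of windows) or TGANTCA (7.81%), while GATAA (25.4%) was found in those of Krt79, Defb6 and Klk7. A match of letters is a description and does not show binding.

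Socs3 was the clearest difference of the list. It stood at 198 CPM in CON, 204 CPM in UV and 43.6 CPM in Rux over marker-positive cells, from 5602, 1978 and 400 UMIs, and was detected in 65.4% (62.4 to 68.3), 69.3% (63.8 to 74.5) and 40.5% (34.9 to 46.2) of them. CON and UV were at like levels and Rux alone was low, with a log2 ratio for Rux over UV of −2.23 (−2.39 to −2.07). The ratio was −2.18 in marker-rich cells and −2.30 (−2.56 to −2.06) in subcluster 7, where Socs3 had 306 CPM in CON, 332 CPM in UV and 67.2 CPM in Rux. In subcluster 2 it had 203, 188 and 36.0 CPM, and in subcluster 0, of inner root sheath genes, 50.6, 54.2 and 10.7 CPM. Among the other epithelial cells Socs3 had 129, 89.1 and 39.2 CPM, a log2 ratio for Rux over UV of −1.18. In the basal-leaning remainder, where inner root sheath genes were higher in UV, Socs3 had 193, 51.2 and 27.5 CPM, with UV below CON.

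Irf1, a transcription factor that interferons induce, stood at 178 CPM in CON, 165 CPM in UV and 77.3 CPM in Rux, and at 221, 251 and 100 CPM in subcluster 7, a log2 ratio for Rux over UV of −1.32 (−1.55 to −1.11). Stat3 had 382, 333 and 176 CPM, and 504, 472 and 227 CPM in subcluster 7. Cish, the feedback inhibitor of STAT5 signalling, had 64.0, 83.0 and 54.1 CPM, and 88.8, 124 and 66.8 CPM in subcluster 7, below 2-fold in both. These 3 genes were lowest in Rux, in the marker-positive cells and in subcluster 7. Stat2 had 16.4 CPM in CON, 19.5 CPM in UV and 5.88 CPM in Rux, and Socs2 had 22.6, 19.1 and 6.43 CPM. The kinases Jak1 and Jak2 showed small differences, at 197, 162 and 153 CPM for Jak1 and 178, 176 and 152 CPM for Jak2. Among receptors Osmr, the receptor of oncostatin M and interleukin-31, had 81.5 CPM in CON, 168 CPM in UV and 115 CPM in Rux in subcluster 7, and Il4ra, shared by interleukin-4 and interleukin-13, had 32.0, 75.1 and 38.6 CPM there. Both receptors were highest in UV. Of the JAK-STAT list in subcluster 7, 22 genes were higher and 13 lower in UV than in CON. Il4ra, Socs1 and Osmr were at least 2-fold higher and Stat5a at least 2-fold lower. In marker-rich cells Il6ra of the same list was at least 2-fold lower in UV than in CON.

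Interferon-stimulated genes were lower in Rux than in UV in 9 of 10 genes past the minimum over marker-positive cells and in 10 of 10 in subcluster 7, with medians of −0.39 and −0.58. Gbp2, a guanylate-binding protein of interferon-gamma responses, had 17.6 CPM in CON, 20.6 CPM in UV and 7.41 CPM in Rux, and in subcluster 7 it had 19.7, 45.7 and 4.77 CPM. Of UV and Rux, Gbp2 was above 10 CPM in UV alone, through which it reached the minimum. Ifi27l2a, given above and over 10 CPM in each library over the marker-positive cells, was the other list gene past 2-fold in both sets. The 4 MHC class II genes past the minimum were all lower in Rux, with a median of −0.76, and 6 of 6 in subcluster 7 with −0.60, though Rux levels stayed above those of CON in each gene given above. In marker-rich cells the MHC class II median was −0.21 over 5 genes, with none past 2-fold. Il24 had 3.04 CPM in Rux against 67.1 CPM in UV in subcluster 7, from 7 and 201 UMIs, and was detected in 7.69% and 23.1% of its cells. Il33, an alarmin of barrier cells, had 12.9 CPM in CON, 25.3 CPM in UV and 7.95 CPM in Rux over marker-positive cells.

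The metallothioneins Mt1 and Mt2, which bind zinc and other metals, were lower in Rux than in UV. Mt1 stood at 2014 CPM in CON, 2240 CPM in UV and 996 CPM in Rux over marker-positive cells, and at 2979, 3117 and 868 CPM in subcluster 7, where its log2 ratio for Rux over UV was −1.84 (−1.92 to −1.77). Mt2 had 1773 CPM in CON, 1761 CPM in UV and 601 CPM in Rux in subcluster 7. Both were at like levels in CON and UV and lower in Rux. Mt4 differed from them, with 156, 20.1 and 169 CPM over marker-positive cells. In the other epithelial cells Mt1 had 2889, 2404 and 1649 CPM, a log2 ratio of −0.54. The antioxidant list that holds Mt1 and Mt2 had a median of −0.23, with 17 of 25 genes lower and Mt1 alone past 2-fold.

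Differentiation genes were higher in Rux than in UV over the marker-positive cells. Of 14 suprabasal genes, 13 were higher, 3 by at least 2-fold (Mt4, Krt10 and Krt1), with a median of 0.54, and of 14 cornified envelope genes 13 were higher with a median of 0.81. Krt10 in Rux was below CON, with a log2 ratio for Rux over UV of 2.11 (2.05 to 2.17). The cornified envelope genes Lce1b and Lce1a1 were detected in 1.29% and 1.94% of the marker-positive cells of Rux. In subcluster 7 the suprabasal median was −0.04 with 6 of 12 genes higher, and in marker-rich cells the cornified envelope median was 0.06, with Lor at 738 CPM in CON, 213 CPM in UV and 207 CPM in Rux. In marker-rich cells outside subcluster 6 the cornified envelope median was −0.14, with 5 genes higher and 11 lower in Rux. The tight junction and desmosome list was higher in Rux in 14 of 16 genes, and in 15 of 15 in marker-rich cells, with medians of 0.20 and 0.40, but in 9 of 16 in subcluster 7, with a median of 0.11. No gene of it was past 2-fold in these sets.

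Of the upper follicle genes other than the markers, 11 of 15 were higher in Rux than in UV over marker-positive cells, 13 of 15 in marker-rich cells and 7 of 14 in subcluster 7. Gata6 in marker-rich cells had 46.0 CPM in CON, 75.7 CPM in UV and 156 CPM in Rux, and in subcluster 7 it had 81.8, 70.8 and 128 CPM. Sprr1a, a small proline-rich protein of the cornified envelope, had 156, 248 and 437 CPM over marker-positive cells and 50.1, 97.8 and 59.0 CPM in subcluster 7, where UV was highest. Krt6a in subcluster 7 had 170 CPM in CON, 437 CPM in UV and 200 CPM in Rux, a log2 ratio for Rux over UV of −1.13, while it was −0.34 over marker-positive cells and 0.14 in marker-rich cells. Plet1 and Postn, higher in UV than in CON, had log2 ratios for Rux over UV of −0.15 and 0.16. Nr4a2, an orphan nuclear receptor of the immediate-early list, had 106 CPM in CON, 49.1 CPM in UV and 144 CPM in Rux in subcluster 7. Most of that list went the other way, with 21 of 27 genes lower in Rux than in UV there and a median of −0.25. Over marker-positive cells 19 of 27 were lower, with a median of −0.23.

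Sebaceous genes were lower in Rux in 12 of 13 genes past the minimum, 9 by at least 2-fold, with a median log2 ratio of −1.16. With only cells of at least 1000 genes and up to 5% mitochondrial UMIs the median was −0.063 over the 7 genes that then passed the minimum, and Soat1, Elovl6, Cers4 and Fasn were higher in Rux. Scd1, the delta-9 desaturase of sebocytes, stood at 768 CPM in CON, 764 CPM in UV and 149 CPM in Rux. Subcluster 6, of sebocyte genes, had 44 cells in CON, 15 in UV and 4 in Rux and carried 19918, 6901 and 896 of the 21717, 7403 and 1370 Scd1 UMIs. In marker-rich cells the sebaceous median was −1.72, and without subcluster 6 it was −0.21 with 0 of 8 genes past 2-fold. Scd1 then had 73.1, 71.8 and 47.8 CPM. In the other epithelial cells, which did not meet the marker rule, Scd1 had 409 CPM in CON, 368 CPM in UV and 55.5 CPM in Rux, and Soat1 had 59.4, 94.1 and 12.5 CPM, so both were lowest in Rux there too. With CON numbers of cells per subcluster, the sebaceous median for Rux over UV in marker-positive cells was −0.16. The part of the number of sebocytes in these levels was not tested further.

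**Figure D4:**
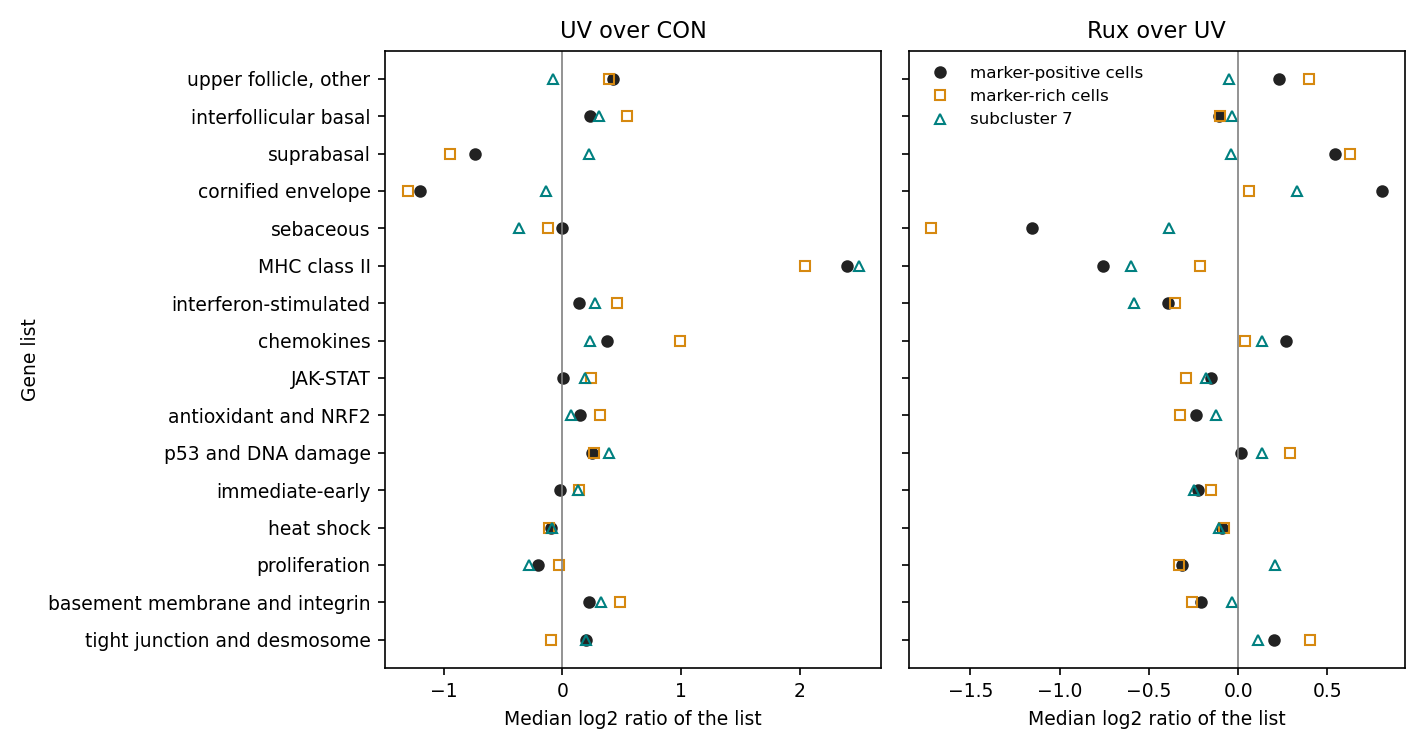
Median log2 ratio of 16 gene lists for UV over CON (left) and Rux over UV (right) in marker-positive cells (filled circles), marker-rich cells (squares) and subcluster 7 (triangles), with a line at 0. The suprabasal median is −0.74 in marker-positive cells and 0.22 in subcluster 7 for UV over CON, and the MHC class II medians on the left are from 2.04 to 2.50, where 3 of the 4 genes in marker-positive cells passed the minimum through UV alone.

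The remaining lists are given by their medians over marker-positive cells. The Notch list had medians of −0.01 for UV over CON and 0.33 for Rux over UV with Nrarp, a Notch target, at least 2-fold lower in UV, the retinoid list 0.02 and 0.01, and the EGF receptor list 0.26 and 0.11. The proliferation list was lower in Rux than in UV in 19 of 21 genes over marker-positive cells, with a median of −0.31, and higher in 19 of 21 in subcluster 7, with a median of 0.21. Lists of other cells that the sample could hold had unequal sums in the marker-rich cells. The sebaceous list summed to 5396 CPM in CON, 5150 CPM in UV and 1443 CPM in Rux, the inner root sheath and hair shaft list to 849, 287 and 178 CPM, and the erythrocyte list to 7.30, 23.7 and 495 CPM. Over all marker-positive cells the inner root sheath and hair shaft list had the opposite order, at 956 CPM in CON, 3163 CPM in UV and 3479 CPM in Rux. Lower sums were those of 8 myeloid genes with 10.5 CPM in CON, 21.2 CPM in UV and 14.5 CPM in Rux, 8 endothelial genes with 35.4, 51.7 and 14.8 CPM, and 8 T cell genes with 61.5, 35.4 and 42.7 CPM, nearly all of it Trbc2. Fibroblast genes, 10 in the list, summed to 1206, 1033 and 1143 CPM, of which Gsn, an actin-severing protein that keratinocytes also make, had 508, 515 and 724 CPM.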

How the data were processed

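Dissociated dorsal skin was captured with 10x 3′ chemistry. The deposited matrices hold unnormalized UMI counts per gene and barcode, made by the authors with Cell Ranger on mm10 (6.1.2 per the labels, 7.0.0 per the file headers), and the labels also name Seurat 5.3.0. Ambient RNA was not removed here.

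Cells were retained from 500 detected genes upwards and up to 10% mitochondrial UMIs. Counts were summed per library, 0.5 UMI was added for ratios, and genes needed a mean of 50 CPM to be counted or 10 CPM within lists. A difference was counted past 2-fold, with no test, since each group has 1 library. Marker-positive cells were clustered on 1994 variable genes, 20 components, 15 neighbours and resolution 0.5 (Leiden). Doublets were scored with Scrublet at 0.8% per 1000 cells and kept, which was varied. Named genes are the rule markers, genes of the lists, the 10 highest and lowest ratios of each comparison at 50 CPM and 100 UMIs, the 10 highest over other epithelial cells, and 3 leading genes per subcluster. Some genes that this rule names are not reported here. Members and lists were chosen with earlier results of these data known, and the marker-rich set, with or without subcluster 6, after the data were seen. The ratio computation was tested on simulated data. Intervals were exact at 95% (Clopper-Pearson, Poisson or conditional binomial). Gene positions are from GENCODE M21. Python 3.11.15, numpy 2.4.6, scipy 1.17.1, pandas 2.3.3, scanpy 1.11.5, leidenalg 0.10.2 and matplotlib 3.10.9 were used.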

Additional observations from a re-analysis of the deposited data

How the results depend on the processing

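No paired analysis was possible because each group has 1 sample, and no library could be left out. The share of cells that met the rule in CON, UV and Rux was 19.5%, 6.07% and 7.0% with at least 2 markers, 4.59%, 1.61% and 1.68% with at least 4, 4.53%, 1.57% and 1.77% with 2 UMIs for each marker, 4.09%, 1.58% and 1.45% after thinning, 4.70%, 1.54% and 1.60% for marker-rich cells, and 20.3%, 13.1% and 17.0% of epithelial cells. CON was highest in each of these. Genes past the fold, higher and lower for UV over CON and then for Rux over UV, numbered 35, 36, 23 and 28. At 1.5-fold they were 142, 83, 78 and 108, of the same 3719 genes for UV over CON and 3666 for Rux over UV. Without a CPM minimum, but with at least 10 UMIs, more genes were counted, 17192 and 15676. The numbers were then 1167, 1130, 566 and 1117. Marker-rich cells gave 15 higher and 83 lower for Rux over UV, and outside subcluster 6 they gave 61 lower for UV over CON and 11 higher for Rux over UV. Equal weight per cell gave 22 lower for UV over CON, and at least 1000 genes with at most 5% mitochondrial UMIs (the strict filter) gave 18 lower for Rux over UV.

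The suprabasal median for UV over CON was −0.47 with equal weight per cell, −1.0 with at least 4 markers, −0.83 without doublets, −0.55 with subclusters weighted as in CON, −0.95 in marker-rich cells and −0.89 in those outside subcluster 6. The MHC class II median was 1.86, 2.90, 1.85, 2.04 and 2.00 in these settings, doublet removal aside, and 2.00 without a CPM minimum. The sebaceous median for Rux over UV was −0.063 under the strict filter, −0.16 with CON weights, −1.72 in marker-rich cells and −0.21 outside subcluster 6. Of list medians, 192 values moved and 458 did not, and of single genes 850 moved, 47 changed sign and 1083 did neither.

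Signs changed as follows, and the cause was not tested. In marker-rich cells and then outside subcluster 6, UV over CON was −2.55 and −2.55 for Krt25, −1.77 and −1.75 for Krt71, −1.65 and −1.63 for Tchh, −1.84 and −1.82 for Krt27, −1.76 and −1.85 for Fabp4 and −0.063 and −0.046 for Areg, and 0.11 for Mlana outside subcluster 6 alone. For Rux over UV the pair was −0.036 and −0.25 for Lor, −2.19 and −2.41 for Mlana, −0.16 and −0.12 for S100a3, 0.82 and 0.78 for Fabp4, −3.01 and −3.23 for Lce1b, −0.28 and −0.50 for Lce1m, −1.29 and −1.50 for Lce1a1, −2.02 and −2.24 for Ptgds, −1.85 and −2.07 for Krt73, with −0.032 for Crct1 and −0.12 for Gm49425 outside subcluster 6 alone. With at least 4 markers, Rux over UV was 4.37 for Krt6b, 0.66 for Cstdc5, −2.93 for Mlana, 1.37 for Fabp4, −2.69 for Lce1b, −1.47 for Lce1m and −2.20 for Ptgds, and UV over CON was −1.30 for Fabp4. Under the strict filter, Rux over UV was 0.28 for Soat1, 0.31 for Elovl6, 0.21 for Cers4, 0.30 for Fasn, −1.63 for Mlana and −2.03 for Ptgds.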
